A study of Mus musculus with 4 samples.

Results

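The sequences described here are miRNA reads with a non-toxic 6mer seed, bound to the Ago proteins of mouse brain. They were defined by the 6mer seed viability deposited with each sequence. This value is the viability of 3 mouse cell lines, in percent of the control, after transfection with a short duplex carrying the seed. A sequence was taken when it had a miRNA name and its seed had a viability of 90% or more. This gave 973 of the 85704 sequences in the table, or 973 of the 40045 sequences with a miRNA name. They carried 75 different seeds and 128 miRNA names, in 193 combinations of a miRNA and a seed, called pairs below. The rule itself uses no CPM level, and the 2 ages were compared on these levels. It was set, however, with earlier results of these data known.

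The R-sRNAs (RISC-bound short RNAs) came from BL6 mice, given as male C57BL/6J in the methods, with no transgene or treatment in either group. One group was 2 months old and the other 18 months old, with 2 libraries at each age. Cortex and hippocampus were combined, Ago complexes were pulled down with a GW182 peptide, and the bound short RNAs were sequenced. The deposited values are CPM, reads per 1000000 reads of the library. By library, the CPM scale rests on 10484940 and 11388999 reads for the young mice and on 10575081 and 9067007 reads for the old mice, so that a count of 3 corresponds to 0.263 to 0.331 CPM. Nothing in the labels says that the libraries of an age came from separate animals, so p-values measure the spread between these libraries, which may be technical. Because the tissue is a mixture, fewer cells of a type and less miRNA per cell cannot be told apart.

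A miRNA guides an Ago protein to mRNAs mainly through its seed, the short stretch near its 5′ end that pairs with the target. A duplex whose seed matches many genes that cells need for survival kills the cells, and G-rich seeds are known for this. miRNAs with non-toxic seeds occupy Ago without doing so. The seed is counted from the first base of the read, so a read that starts a base later, or differs at a base within the seed, has another seed and another viability.

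The sequences that carried most of the non-toxic reads are shown first, each as the most abundant sequence of its pair. Bases 2 to 8 are in capitals, and the first 6 of these capitals are the scored 6mer seed. miR-410-3p and miR-344d-3p share a seed, and the others each have their own.
miR-153-3p: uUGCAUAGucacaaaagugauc
miR-410-3p: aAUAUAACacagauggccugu
miR-344d-3p: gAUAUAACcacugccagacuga
miR-204-5p: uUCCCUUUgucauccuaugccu
miR-381-3p: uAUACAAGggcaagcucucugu
miR-376b-5p: gUGGAUAUuccuucuaugguu
miR-151-3p: cUAGACUGaggcuccuugagg
miR-299a-5p: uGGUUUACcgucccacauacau
miR-466d-3p: uAUACAUAcacgcacacauagu
The last pair of lines shows the miRNAs whose non-toxic reads were called lower at 18 months. Of the miRNA names among the non-toxic sequences, counted singly where a name joins several miRNAs, 104 of 132 matched RefSeq mature miRNAs (GRCm38.p6). The sequences shown for miR-153-3p, miR-410-3p, miR-344d-3p, miR-204-5p, miR-381-3p and miR-299a-5p were identical to RefSeq's mature sequence, and that of miR-376b-5p was 1 base shorter at its 3′ end.

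A second set shows how the start of the read sets the seed. For each miRNA, the most abundant sequence with its usual seed stands above the one with the non-toxic seed, with the same bases in capitals.
miR-30e-5p, usual start: uGUAAACAuccuugacugga
miR-30e-5p, 1 base later: gUAAACAUccuugacuggaagcu
miR-26a-5p, usual start: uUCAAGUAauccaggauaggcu
miR-26a-5p, 2 bases later: cAAGUAAUccaggauaggcu
miR-137-3p, usual start: uUAUUGCUuaagaauacgcgu
miR-137-3p, 3 bases later: uUGCUUAAgaauacgcguagu
miR-98-3p, usual start: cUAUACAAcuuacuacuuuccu
miR-98-3p, 1 base later: uAUACAACuuacuacuuuccuu
miR-335-3p, usual start: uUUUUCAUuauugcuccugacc
miR-335-3p, 1 base earlier: gUUUUUCAuuauugcuccugacc
In the miR-30e-5p reads the later start moves the 6mer seed from GUAAAC, with a viability of 76.4%, to UAAACA, with 95%. miR-137-3p and miR-335-3p fall outside the rule for named pairs and were chosen after their values were seen.

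Non-toxic miRNA reads made up a small share of the RISC content, and their share was lower at 18 months. They accounted for 1.56% (95% Wilson interval 1.556 to 1.571) and 1.72% (1.716 to 1.732) of all reads at 2 months. At 18 months the shares were 1.32% (1.315 to 1.329) and 1.46% (1.448 to 1.464). The intervals cover counting error only. The ages did not overlap, and the mean fell from 1.64% ± 0.114 to 1.39% ± 0.0948 (SD, n = 2 each), a ratio of 0.845. An exact two-sided permutation test of 2 against 2 libraries gave p = 0.33, which is the smallest value this design allows. Of the miRNA reads alone the share was 1.70% ± 0.118 at 2 months and 1.44% ± 0.0994 at 18 months. With miR-153-3p left out, the ages overlapped, at 0.871% and 1.09% against 0.800% and 0.872%. With a viability threshold of 95%, the difference changed sign, to 0.0301 percentage points higher at 18 months, as the large pairs with lower viability then drop out.

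The other viability classes of miRNA reads overlapped between the ages. Reads with seeds under 50% viability made up 25.6% ± 0.832 of all reads at 2 months and 25.8% ± 2.05 at 18 months. Reads with seeds from 70% to under 90%, next to the non-toxic ones, made up 22.4% and 23.5% at 2 months and 22.8% and 23.2% at 18 months. The difference between classes was not tested.

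Few miRNAs carried the non-toxic reads. The first 4 pairs, of miR-153-3p, miR-410-3p, miR-204-5p and miR-381-3p, held 82.4% to 85.02% of them in every library. The first 20 pairs held 98.6% to 98.8%. The 171 pairs under a mean of 10 CPM held 1.05% to 1.25% together, and 127 of these were under 1 CPM. By seed, the first 6 of 75 held 94.5% to 95.1%. Of the 973 sequences, 522 were found in all 4 libraries and 253 had a mean of 1 CPM or more.

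miR-153-3p, a miRNA of neurons transcribed within an intron of Ptprn2 (GRCm38, chromosome 12, 117250860 to 117250881, plus strand), was the most abundant carrier. Its reads with the seed UGCAUA, viability 94.7%, stood at 6918 and 6380 CPM at 2 months and at 5214 and 5835 CPM at 18 months. It held 37.0% to 44.3% of the non-toxic reads of a library. Both libraries at 18 months lay below both at 2 months, but the log2 change of -0.27 (SE 0.20) did not pass limma's test (adjusted p = 0.540). The change was -0.12 after rescaling by the median of ratios, -0.10 in edgeR and -0.12 in DESeq2. In each library 95.7% to 96.2% of the miR-153-3p reads had this seed. Reads that started 1 base later, with the seed GCAUAG and a viability of 71.8%, stood at 240 and 238.7 CPM at 2 months and at 149 and 193 CPM at 18 months.

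The reads of miR-153-3p differed mainly at the 3′ end, and the 4 most abundant sequences, shown next, differ in nothing else.
miR-153-3p, 22 nt: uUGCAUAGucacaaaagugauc
miR-153-3p, 21 nt: uUGCAUAGucacaaaagugau
miR-153-3p, 24 nt: uUGCAUAGucacaaaagugaucau
miR-153-3p, 23 nt: uUGCAUAGucacaaaagugauca
The 22-nt sequence stood at 2206 and 2358 CPM at 2 months and at 1707 and 1576 CPM at 18 months. The 24-nt sequence stood at 1382 and 1190 CPM at 2 months and at 760 and 1072 CPM at 18 months. Neither of these overlapped between the ages. The 21-nt sequence, at 1316 and 1472 CPM against 1198 and 1555 CPM, and the 23-nt sequence, at 1124 and 402 CPM against 795 and 709 CPM, did overlap. Over all non-toxic reads, 7.32% to 10.4% were 24 nt or longer, against 3.08% to 3.37% of the other miRNA reads.

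miR-410-3p, miR-381-3p, miR-376b-5p and miR-299a-5p come from the imprinted Dlk1-Dio3 region of chromosome 12, whose large miRNA cluster is expressed from the maternal allele. miR-410-3p (109743764 to 109743784, in an exon of the long noncoding RNA Mirg) had the seed AUAUAA, viability 94.3%. It stood at 2762 and 3486 CPM at 2 months and at 2586 and 2399 CPM at 18 months, a log2 change of -0.32 (SE 0.21, limma adjusted p = 0.505). miR-381-3p (109726870 to 109726891) had the seed AUACAA, with the same viability. It stood at 1358 and 2238 CPM at 2 months and at 898 and 1269 CPM at 18 months, a log2 change of -0.71 (SE 0.32, limma adjusted p = 0.365). For both, the 18-month libraries lay below the 2-month libraries, and the spread within an age was large. The change of miR-410-3p was -0.17 after rescaling, -0.17 in edgeR and -0.19 in DESeq2, -0.48 without 2 months replicate 1 and -0.15 without 2 months replicate 2. That of miR-381-3p was -1.07 without 2 months replicate 1, where it passed an unadjusted p of 0.05, but -0.35 without 2 months replicate 2 and -0.46 without 18 months replicate 1.

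miR-376b-5p (109723471 to 109723492) had the seed UGGAUA, viability 93.0%, and stood at 670 and 795 CPM at 2 months and at 499 and 555 CPM at 18 months. Its log2 change of -0.47 (SE 0.20), or -0.31 in edgeR, did not pass (limma adjusted p = 0.365). Between 86.3% and 87.6% of its reads had this seed, a lower part than for the other 6 of the 7 most abundant pairs. Reads that started 1 base later, with the seed GGAUAU and a viability of 66.8%, stood at 77.6 and 90.8 CPM at 2 months and at 55.6 and 63.2 CPM at 18 months.

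miR-299a-5p (109710644 to 109710665) showed the clearest difference between the ages among the non-toxic pairs. With the seed GGUUUA, viability 90.3%, it stood at 151 and 161 CPM at 2 months and at 66.7 and 86.7 CPM at 18 months. The log2 change was -1.03 (SE 0.23), with limma adjusted p = 0.261. The call at an unadjusted p under 0.05 was kept in every alternative fit run for this pair, with each library left out included. Of its single sequences, 4 that differ only at the 3′ end, of 20 to 22 nt, were called lower at 18 months.

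The Dlk1-Dio3 region held 27 of the 193 non-toxic pairs and 31.8% and 38.9% of the non-toxic reads at 2 months against 30.8% and 29.7% at 18 months. Summed, these pairs stood at 4966 and 6702 CPM at 2 months and at 4070 and 4324 CPM at 18 months, a ratio of 0.719 (exact permutation p = 0.33, the smallest possible). The 119 pairs that RefSeq places elsewhere stood at 10065 and 9958 CPM against 8521 and 9742 CPM, a ratio of 0.912. Another 47 pairs had no RefSeq entry and were not placed, so 27 is the least number of pairs in the region. These 47 stood at 599 and 579 CPM at 2 months and at 626 and 493 CPM at 18 months. All 4 tested non-toxic pairs of the region were lower at 18 months with no overlap, with a median log2 change of -0.59, or -0.44 after rescaling by the median of ratios. Among the 134 other tested pairs of the region, 80 were lower and 6 higher with no overlap, with a median of -0.38, or -0.23 after rescaling. Over all 858 tested pairs, 33.6% were lower and 14.9% higher with no overlap, with a median of -0.15. Pairs of the region with other seeds thus also lay lower at 18 months.

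miR-204-5p, a miRNA of the choroid plexus and retinal pigment epithelium in an intron of Trpm3 (chromosome 19, 22750610 to 22750631, plus strand), did not follow this pattern. With the seed UCCCUU, viability 96.5%, it stood at 2022 and 2554 CPM at 2 months and at 2190 and 2703 CPM at 18 months. The ages overlapped, and the log2 change was 0.10 (SE 0.23, limma adjusted p = 0.851). Its sign turned, to -0.07 and -0.05, without 2 months replicate 1 and without 18 months replicate 2. Its levels overlapped with those of miR-410-3p across libraries, so the order of the second and the third pair is not settled.

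Among the pairs of lower level, miR-344d-3p, from copies in the chromosome 7 cluster of brain miRNAs, had the seed of miR-410-3p. It stood at 341 and 288 CPM at 2 months and at 286 and 289 CPM at 18 months. Its log2 change of -0.12 (SE 0.20, limma adjusted p = 0.783) turned to 0.02 after rescaling. miR-344b-3p (chromosome 7, 61790522 to 61790543, minus strand) had the highest viability among the seeds of the 20 leading pairs, 99.6% for AUUUAG, and stood at 45.2 and 38.5 CPM against 33.8 and 40.5 CPM. miR-151-3p, with the seed UAGACU and 93.9%, stood at 299 and 305 CPM at 2 months and at 309 and 238 CPM at 18 months. All of these overlapped between the ages. miR-31-3p, from the 3′ arm of its hairpin (chromosome 4, 88910577 to 88910599, minus strand), stood at 87.3 and 73.1 CPM at 2 months and at 84.9 and 142 CPM at 18 months, and also overlapped. Its log2 change was 0.45 (SE 0.31, limma adjusted p = 0.505), which became 0.82 without 18 months replicate 1, where it passed an unadjusted p of 0.05, and 0.09 without 18 months replicate 2, the library at 142 CPM. miR-448-3p, which shares the seed of miR-153-3p and lies in an intron of Htr2c, stood at 14.97 and 17.1 CPM against 9.93 and 23.2 CPM.

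miR-466d-3p, of the rodent miR-466 family, had the seed AUACAU, viability 90.7%. It stood at 42.2 and 51.1 CPM at 2 months and at 28.4 and 30.9 CPM at 18 months, with no overlap. The log2 change was -0.63 (SE 0.24), with limma adjusted p = 0.342. This call was lost with no filter on low values (-0.63), under rescaling (-0.49), in edgeR (-0.49) and in DESeq2 (-0.52), and when any 1 library was left out, with changes of -0.77 without 2 months replicate 1, -0.50 without 2 months replicate 2, -0.57 without 18 months replicate 1 and -0.69 without 18 months replicate 2. Members of the miR-466 family are near-identical, so the assignment of its reads to 1 of them is uncertain. Summed over the 9 names that carried it, the seed stood at 72.2 and 79.8 CPM at 2 months and at 51.2 and 46.3 CPM at 18 months. This is not a total of the miR-466 family, as the names include miR-467d-3p, miR-467a-3p and miR-369-3p of the Dlk1-Dio3 region.

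The miR-30 family and its relative miR-384-5p entered through a shifted start. This family is widely expressed, and most of its reads start a base earlier and have the seed GUAAAC. Over its 6 members the non-toxic seed UAAACA stood at 666 and 596 CPM at 2 months and at 785 and 718 CPM at 18 months, and the ages did not overlap. Reads with the usual seed stood at 44118 and 42248 CPM at 2 months and at 48449 and 54425 CPM at 18 months. Of the family's reads, the shifted ones made up 1.47% and 1.38% at 2 months against 1.58% and 1.29% at 18 months, so their shares overlapped. miR-384-5p had the highest share of shifted reads in each of the 4 libraries, 2.45% to 3.21%, and miR-30d-5p the lowest, 0.814% to 0.976%.

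Within this family, miR-30e-5p stood at 173 and 172 CPM at 2 months and at 191 and 197 CPM at 18 months with the shifted seed. miR-30c-5p stood at 118 and 102 CPM against 161 and 147 CPM, a log2 change of 0.49 (SE 0.21, limma adjusted p = 0.365), and miR-30b-5p at 66.7 and 63.7 CPM against 95.2 and 85.6 CPM, a change of 0.46 (SE 0.21) with the same adjusted p. In neither did the ages overlap. Both passed an unadjusted p of 0.05 after rescaling, where the changes were 0.63 and 0.61. miR-30a-5p, at 150 and 130 CPM against 162 and 163 CPM, also did not overlap, and miR-30d-5p, at 130 and 102 CPM against 145 and 99.0 CPM, did.

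Other miRNAs reached a non-toxic seed through minor forms. miR-26a-5p, among the abundant miRNAs of the brain, has the usual seed UCAAGU, viability 43.0%. With this seed it stood at 57034 and 47749 CPM at 2 months and at 72243 and 57962 CPM at 18 months, with no overlap. Its reads that start 2 bases later, with the seed AAGUAA and 90.5%, stood at 27.6 and 38.5 CPM at 2 months and at 40.9 and 34.1 CPM at 18 months, or 0.0479% to 0.0797% of its reads. In miR-137-3p, a neuronal miRNA, viability rose with each later start, from 51.3% to 56.3%, 87.0% and 108.5%, the last being the highest value of any member. Its reads with that last seed, UGCUUA, stood at 16.8 and 10.8 CPM at 2 months and at 5.67 and 9.05 CPM at 18 months, a log2 change of -0.82 (SE 0.37, limma adjusted p = 0.365). miR-98-3p was split between its starts, with 35.2% to 46.1% of its reads on the non-toxic seed. miR-335-3p had 15.04% to 17.7% on the seed UUUUUC, which starts a base earlier.

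Reads whose seed was not found in the hairpin of their miRNA were few. Sequences that differed from RefSeq's hairpin at bases 2 to 7 when placed at their best-matching start accounted for 131 of the 973 members and 0.206% to 0.341% of their reads. Of these 131, 62 differed at 1 base of the seed, with 0.123% to 0.200% of the reads, and the rest at several bases. Most abundant among them were miR-200a-3p reads with C4A, counted from the first base of the read, which turns the seed AACACU, viability 64.6%, into AAAACU, with 96.4%. They stood at 5.53 and 7.82 CPM at 2 months and at 8.61 and 11.4 CPM at 18 months, while miR-200a-3p with its usual seed stood at 13028 and 25380 CPM against 25303 and 32461 CPM. The same change occurred in miR-141-3p, at 1.72 and 1.67 CPM against 1.61 and 2.98 CPM. In the other direction, miR-151-3p reads with A3G, relative to its most abundant sequence, had the seed UGGACU with a viability of 24% and were not members. They stood at 10.6 and 10.1 CPM at 2 months and at 7.66 and 3.31 CPM at 18 months. The usual and the changed sequence of these miRNAs are shown next.
miR-200a-3p: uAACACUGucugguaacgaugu
miR-200a-3p, C4A: uAAAACUGucugguaacgaugu
miR-151-3p: cUAGACUGaggcuccuugagg
miR-151-3p, A3G: cUGGACUGaggcuccuugagg

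Most non-toxic reads began where RefSeq places the mature 5′ end. This held for 89.9% to 93.2% of them by library, against 74.1% to 78.9% of the other miRNA reads, but 14.9% to 19.6% of the others had no RefSeq entry to compare with, and 3.36% to 4.74% of the non-toxic reads. Among reads with an entry the shares were 94.4% to 96.4% and 92.1% to 92.8%. Reads with a shifted start made up 3.26% to 4.99% of the non-toxic reads and 5.61% to 6.02% of the others. Of the 22 tested pairs, 12 held most of the reads of their miRNA and 10 were minor forms. The 27 pairs that held most of the reads of their miRNA accounted for 92.5% to 95.3% of the non-toxic reads.

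The non-toxic seeds were rich in A and U and poor in G. Weighted by reads, G made up 8.70% to 9.90% of their seed bases, against 22.5% to 24.7% in the other miRNA reads. U made up 33.2% to 34.3%, against 19.0% to 19.5%. Of the 75 seeds, 39 had 5 or 6 A or U, and 52.0% is well above the 9.88% among the 2733 other seeds. UCCCUU of miR-204-5p, with 3 C, was the only seed with fewer than 4 A or U among the 4 most abundant seeds. Between 71.6% and 77.1% of the non-toxic reads came from 3′ arms of their hairpins, against 52.4% to 56.1% of the others. These are descriptions, since few miRNAs carry most of the reads and seeds were chosen by a readout that depends on their bases.

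The threshold lay within a continuous range of viabilities. Among seeds averaging 10 CPM or more, the members just inside were GGUUUA of miR-299a-5p at 90.3%, AAGUAA of miR-26a-5p at 90.5% and AUACAU of miR-466d-3p at 90.7%. Just outside were AUUAAG, led by miR-124-3p, at 89.6%, AUACGA, led by let-7d-3p, at 89.0%, and UGCGCA, led by let-7i-3p, at 88.8%. The last of these stood at 660 and 1085 CPM at 2 months and at 645 and 1063 CPM at 18 months, so it alone would have added a carrier of the size of miR-376b-5p. The study added miR-21-5p, miR-92a-3p and miR-25-3p as nontoxic miRNAs to human Drosha-deficient cells, and for human cells it rates seeds by human cell lines. By the mouse score used here, their main seeds lay below the threshold. The viability was 80.2% for miR-21a-5p and 86.2% for the seed that miR-92a-3p and miR-25-3p share. The study does not state this threshold of 90%, so the values do not bear on its own rating. miR-21a-5p and miR-25-3p each had 1 minor sequence among the members, at a mean of 0.142 and 0.214 CPM, and miR-92a-3p had 0.

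The non-toxic pairs were then counted against all miRNA pairs, with no test of the difference between the counts. Of 858 pairs that averaged 10 CPM or more, 22 were members, and limma was fitted to log2(CPM + 1) over all of them. Of the members, 2 of 22 were lower at an unadjusted p under 0.05 (miR-299a-5p and miR-466d-3p), where 9.56% of all tested pairs were lower, and 0 of 22 were higher, where 4.43% of all were higher. The share called in either direction over all pairs was 14.0%. After Benjamini-Hochberg adjustment 0 of 22 members and 0.0% of all pairs passed in limma, and 0 members passed in edgeR and DESeq2. At an unadjusted p under 0.05 each of these called 3 of 22 members, where they called 12.9% and 13.1% of all pairs, and of the 3 members 1 was lower (miR-299a-5p) and 2 were higher (miR-30b-5p and miR-30c-5p). Of all 858 pairs, edgeR passed 0 and DESeq2 12 after adjustment. Without overlap between the ages, 7 of 22 members were lower, where 33.6% of all pairs were, and 4 were higher, where 14.9% were. The median log2 change was -0.12 over the members and -0.15 over all pairs.

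Rescaling by the median of ratios, which brought the median of all pairs to -0.00, moved the median of the members to 0.02 and left 10 of 22 below 0 instead of 13. Of the members, miR-299a-5p stayed lower after rescaling, with a change of -0.88, and miR-30c-5p and miR-30b-5p were then higher at an unadjusted p under 0.05. The number of members called lower fell to 1, miR-299a-5p, without 18 months replicate 1 and also without 18 months replicate 2. Of pairs under 50% viability, 39 of 251 were called, 31 lower and 8 higher. From 50% to under 70% it was 36 of 278, 22 lower and 14 higher. From 70% to under 90% it was 43 of 307, 27 lower and 16 higher. Called pairs were thus mostly lower at 18 months in every class. The median log2 changes of these classes were -0.24, -0.12 and -0.12, or -0.10, 0.02 and 0.02 after rescaling.

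Summed by seed, 2 of 16 tested members were called, GGUUUA (-1.01, SE 0.23, limma adjusted p = 0.202) and AUACAU (-0.63, SE 0.22, limma adjusted p = 0.325), both lower. In either direction, 14.1% of 679 seeds were called. None of the 16 passed after adjustment in limma, edgeR or DESeq2. Of all 679 seeds, limma passed 1 (0.147%), edgeR 0 and DESeq2 13. GGUUUA remained called in edgeR, in DESeq2, after rescaling and with any 1 library left out, and AUACAU in none of these.

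Of single sequences, 17 of 253 tested members were called at an unadjusted p under 0.05, where 10.1% of all 14287 tested were. 11 were lower, where 4.23% of all were, and 6 higher, where 5.87% were. After adjustment 0 of 253 passed in limma, edgeR or DESeq2. Of all 14287 sequences, limma passed 6 (0.042%), edgeR 3 and DESeq2 93. The called sequences that were lower included the 22-nt sequence of miR-381-3p shown above, at 1245 and 2060 CPM against 779 and 1088 CPM (log2 change -0.80, SE 0.33, limma adjusted p = 0.461). The higher ones included 5 shortened reads of the miR-30 family with the shifted seed. The 20-nt read of miR-30e-5p with the usual seed, not a member, was also higher at 18 months. It stood at 1630 and 1335 CPM at 2 months and at 2501 and 2996 CPM at 18 months. Of the 5 called reads, a 20-nt read of miR-30c-5p stood at 15.5 and 8.69 CPM at 2 months and at 24.4 and 25.7 CPM at 18 months.
miR-30c-5p, 20 nt: gUAAACAUccuacacucuca
The number of called member sequences fell to 9 of 253 in DESeq2, where 6.59% of all sequences were called.

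The 22-nt form of miR-381-3p also made up a smaller share of its pair at 18 months. It made up 92.9% and 92.9% of the reads of this pair at 2 months and 87.7% and 87.1% at 18 months. The 21-nt reads made up 3.20% and 3.65% at 2 months and 6.18% and 7.55% at 18 months. These shares did not overlap, and the exact permutation p of each was 0.33, the smallest possible. The 20-nt share was also higher at 18 months with no overlap in this pair and in miR-153-3p, at 8.39% and 9.999% against 10.3% and 11.1%, in miR-410-3p, at 1.02% and 0.824% against 1.25% and 2.75%, and in miR-376b-5p, at 4.23% and 4.88% against 5.44% and 6.12%. Over all members, reads of 20 nt or shorter made up 7.40% and 7.03% at 2 months and 8.92% and 8.90% at 18 months. Among the other miRNA reads they made up 14.1% and 15.6% against 16.1% and 14.0%, which overlapped. In miR-204-5p the 20-nt reads made up 2.55% and 2.44% against 3.62% and 2.49%, which overlapped. Its 22-nt reads, at 73.5% and 74.7% against 74.8% and 71.7%, also overlapped. How often such length shares failed to overlap over all pairs was not counted, so these values have no background beside them.

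miRNAs of other cell types in the same libraries were summed to set beside these values. Neuronal miRNAs (3 of 3 found) stood at 184377 to 195044 CPM at 2 months and at 169186 to 195706 CPM at 18 months, and those of oligodendrocytes (2 of 2) at 5180 to 6565 CPM and 4119 to 6365 CPM, both overlapping. Endothelial miRNAs (2 of 2) were lower at 18 months, at 11472 to 12243 CPM against 5422 to 8990 CPM, and immune miRNAs (5 of 5) at 3142 to 3569 CPM against 2771 to 2902 CPM. Epithelial and sensory miRNAs (6 of 6) were higher, at 30046 to 51734 CPM against 63458 to 68622 CPM. Red blood cell miRNAs (2 of 3 found under their own name, miR-486a-5p not) overlapped, at 1798 to 3374 CPM and 1698 to 2818 CPM, as did miR-204-5p for the choroid plexus, at 2100 to 2623 CPM and 2256 to 2786 CPM. miR-204-5p was the only choroid plexus marker used and is itself a main carrier of non-toxic reads, so its values are not separate from theirs. The part of these cell types in the levels of the non-toxic miRNAs was not tested.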

How the data were processed

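The members and lists were chosen with earlier results of these data known. The authors trimmed reads (Trim Galore, per the labels), discarded rare ones, compared the remainder by BLAST with small RNA lists and deposited CPM per sequence and library. They also deposited the seed viability, a score, and a summed signal over the libraries, which was not used here. Versions and the aligner's settings are not given in the sources used here. The methods name a Kruskal-Wallis median test for seed viabilities between groups, and no test for single rows.

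Libraries were grouped by the labels' age. Whole reads were recovered from CPM with a tolerance of 0.001 CPM, for 100% of the nonzero values. limma 3.58.1 with a trend was fitted, two-sided, to log2(CPM + 1) for pairs and seeds averaging 10 CPM or more and for sequences averaging 1 CPM or more, with age as the only term. Fold changes on this scale understate those of low items. p-values were adjusted over all features tested. edgeR 4.0.16 (quasi-likelihood) and DESeq2 1.42.0 on the recovered reads, other pseudocounts, filters, scalings and thresholds, the replicate block and leaving out each library were alternatives. Single values were compared by exact permutation tests. The pairs named were the 20 of highest mean CPM, the 5 largest rises and falls among called, non-overlapping pairs and any pair passing adjustment. R 4.3.3, Python 3.11.15, numpy 2.4.6, pandas 2.3.3 and scipy 1.17.1 were used. Only the main limma fit was run on simulated counts, with 4-fold changes and a dispersion of 0.05. It recovered 100% of the changed pairs and seeds and 93% of the changed sequences. The data had higher common dispersions, 0.0639 for pairs, 0.0574 for seeds and 0.121 for sequences, so this does not give the recovery in these data. The coordinates and mature sequences are RefSeq's (GRCm38.p6), and host genes are GENCODE's for the same build.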

Additional observations from a re-analysis of the deposited data

Results flagged for a closer look

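Non-toxic seeds were also carried by reads without a miRNA name, which no comparison above used. These 795 sequences summed to 340.4 and 377 CPM at 2 months and to 341 and 361 CPM at 18 months, and the ages overlapped. Of them, 503 matched a miRNA hairpin in the list of small RNAs although they had no miRNA name, and held 263 to 288 CPM of each library. Sequences matched to mRNAs, 159 of them, held 25.1 to 36.2 CPM. The largest single sequence, with the seed AUAGUA and a viability of 93.5%, matched the hairpin of miR-369 and stood at 8.68 and 9.48 CPM at 2 months and at 10.1 and 12.5 CPM at 18 months.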

How the results depend on the processing

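The numbers of called members depended mostly on the filter and the threshold, which also set how many members were tested. For pairs the main count of 2 of 22 became 10 of 193 with no filter on low values and 1 of 12 with the stricter filter. It became 12 of 75 at a viability threshold of 85%, 0 of 10 at 95% and 0 of 22 after adjustment of p. For sequences the count of 17 of 253 became 35 of 973, 8 of 73, 112 of 871, 7 of 96 and 0 of 253, in the same order. DESeq2 called 9 of 253 sequences, where it called 6.59% of all. For seeds the count of 2 of 16 became 5 of 75, 1 of 8, 7 of 46, 0 of 6 and 0 of 16. Rescaling by the median of ratios, edgeR and DESeq2 each called 1 of 16 seeds, where they called 13.0%, 12.8% and 13.4% of all. The shares over all features under the other filters are not given here. Leaving out 1 library at a time gave 1 to 2 pairs, 8 to 25 sequences and 1 to 2 seeds. With 1 library left in an age, that library is assumed to vary like the others.

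The share of non-toxic reads was 0.255 percentage points lower at 18 months, a difference that ran from -0.335 to -0.174 with 1 library left out and turned to 0.0301 at a threshold of 95%. It kept its sign under the other 4 settings tried.

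Same-numbered libraries of the ages share only a number, with a correlation of 0.135 between their deviations over all tested pairs. With the replicate block, 3 of 22 pairs, 17 of 253 sequences and 4 of 16 seeds were called, and the changes of the named pairs kept their direction. miR-381-3p then passed an unadjusted p of 0.05.

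Changes near 0 turned sign. Rescaling by the median of ratios, edgeR and DESeq2 gave miR-344d-3p changes of 0.021, 0.037 and 0.019, and miR-448-3p 0.069, 0.21 and 0.18. edgeR gave miR-151-3p 0.018. With 1 library left out at a time, the changes ran from -0.070 to 0.27 for miR-204-5p, from -0.34 to 0.033 for miR-151-3p, from -0.22 to 0.33 for miR-30d-5p, from -0.046 to 0.42 for miR-26a-5p, from -0.050 to 0.13 for miR-384-5p and from -0.64 to 0.51 for miR-448-3p. The cause of these shifts was not tested. Pairs under a mean of 10 CPM rest on few reads.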
